A study of Mus musculus with 8 samples.

Results

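Enteroendocrine cells are the hormone-secreting cells of the gut epithelium. The 10 genes described here encode their hormones and granule proteins: Chga, Chgb, Gcg, Pyy, Sct, Cck, Tph1, Insl5, Sst and Nts. They were chosen by name from the 23282 gene lines of the deposited count table. Each name stood on 1 line, and all 10 passed the filter on low counts that left 14567 genes for testing. No line of the table overlapped any of the 10 genes, so no neighbour shared their reads by position.

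Enteroendocrine cells are scattered among the other epithelial cells and store peptide hormones and amines in dense-core granules that also hold chromogranins. They sense nutrients and bacterial products in the lumen and release their hormones into blood and onto nearby nerves, where these act on appetite, motility, secretion and insulin release. In the colon the main peptide-producing type is the L cell, which makes proglucagon peptides, peptide YY and insulin-like peptide 5, while enterochromaffin cells make serotonin and D cells make somatostatin.

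The RNA came from intestinal tissue of wild-type C57BL/6 mice, with 2 libraries in each of 4 groups. Dextran sodium sulfate (DSS) in the drinking water injures the colonic epithelium and is a standard colitis model, and exosomes are small vesicles that cells release, here isolated from bovine colostrum. ExDSS mice were gavaged with 1 mg of exosomes a day for 3 weeks and then drank 3% DSS for 6 days. PC mice, the labelled positive control, had the same DSS after gavage with buffer. Ex mice had the exosomes and no DSS. NC mice, the labelled saline control, had buffer and no DSS. The labels give no gut region, age or sex. Nor do they say whether a group's 2 libraries are 2 mice, so the p-values rest on a spread between libraries that may be technical. Libraries are called by group and replicate, as in ExDSS 1.

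The libraries did not all match their labels or each other. S100a8 and S100a9, the neutrophil calprotectin genes that rise in inflamed gut, summed to 2594 and 1590 CPM (library-scaled read counts) in the libraries labelled ExDSS, 0.800 and 1.25 CPM in those labelled PC, 4.29 and 5.96 CPM in those labelled Ex, and 1966 and 1918 CPM in those labelled NC. The PC libraries thus lacked, and the NC libraries carried, the signal that DSS colitis is known for, so every direction below is one between libraries so labelled. Ex 2 stood apart: it had 1163147 counts, against 8813622 to 12308537 in the other libraries, and ribosomal Rn45s took 53.5% of them (exact 95% interval 53.4% to 53.6%, counting error only). The table listed counts on 9825 and 11874 lines in ExDSS, 16787 and 16790 in PC, 16374 and 8760 in Ex, and 16123 and 12683 in NC. Of 4231 lines with at least 20 CPM in each of PC 1, PC 2, Ex 1 and NC 1, 3.90% had no count in ExDSS 1, 0.473% in ExDSS 2, 16.001% in Ex 2 and 0.284% in NC 2. Lgals4, an epithelial galectin, was among the genes with no count in either ExDSS library, against 18.5 and 24.1 CPM in PC. Limits drawn from a count of 0 below cover counting error only, not such missing transcripts. Pancreatic acinar genes summed to 280605 CPM in ExDSS 1 and 110936 CPM in NC 2, against at most 559 CPM in the other 6 libraries. Epithelial markers summed to 4774 to 7480 CPM in all libraries other than Ex 2, which had 65.5 CPM. Gip, the duodenal hormone gene, had at most 0.157 CPM in any library, and Gast had no count.

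Chga and Chgb encode chromogranins A and B, the acidic proteins that pack hormones in granules and mark enteroendocrine cells as a class. Chga (chr12:102554969-102565027, plus strand, coordinates of GRCm38) had 0 and 38.3 CPM in ExDSS, 39.3 and 33.7 in PC, 26.2 and 0 in Ex, and 22.9 and 20.4 in NC. Chgb (chr2:132781278-132795072, plus strand) had 32.6 and 115 CPM in ExDSS, 89.9 and 74.1 in PC, 44.9 and 2.98 in Ex, and 70.5 and 46.8 in NC. Both genes were thus counted in every PC and NC library, each PC library lying above each NC library, and were scattered in ExDSS and Ex. Scaled to total counts, Chgb had 90.8 CPM in PC 2 and 93.2 CPM in NC 1, so that these groups overlapped for Chgb and not for Chga. The 0 of Chga in ExDSS 1 lay beside 238 Chgb counts in the same library. The floor of 3 counts there equals 0.411 CPM, and in Ex 2, where 10 counts fell on all 10 genes together, 4.47 CPM. Exact 95% upper limits for a count of 0 were 0.506 CPM in ExDSS 1 and 5.49 CPM in Ex 2. Where both were counted, the ratio of Chga to Chgb counts lay between 0.325 in NC 1 and 0.584 in Ex 1. The order of group means for Chga was PC (36.5 ± 3.91 CPM), NC (21.6 ± 1.75 CPM), ExDSS (19.1 ± 27.1 CPM) and Ex (13.1 ± 18.6 CPM; SD, n = 2 each). Of these neighbours only PC and NC did not overlap.

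The sequence before the RefSeq start of the granule and somatostatin genes is shown because it holds a textbook regulatory element or, in Chga, only part of it. The element is the cyclic AMP response element, first defined in the somatostatin gene. All 10 genes matched RefSeq promoters of GRCm38.p6 (250 bases before to 50 after each start). The full element TGACGTCA was in those of Chgb and Sst, on a search of both strands, and in 588 of all 32851 promoters (1.79%). Its half-site TGACG, which the full element contains, was in those of 6 of the 10 genes (Chga, Chgb, Cck, Tph1, Sst and Nts) and in 20.8% of all promoters. The lines give 30 bases around the element, or around the half-site in Chga, with the matched bases in capitals. They run 5′ to 3′ on the gene's strand. They are chr16:23890874-23890903 (minus strand), chr2:132781559-132781588 (plus strand) and chr12:102554885-102554914 (plus strand).
Sst: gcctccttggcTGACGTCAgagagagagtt
Chgb: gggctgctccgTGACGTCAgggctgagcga
Chga: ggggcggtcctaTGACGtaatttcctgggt
Counted from the RefSeq start, the element lay at bases -48 to -41 in Sst and -72 to -65 in Chgb. The half-site in Chga lay at bases -44 to -40. The Sst and Chgb stretches lie inside the 5′ UTR of the longer GENCODE models of these genes. The Chgb stretch also lies inside the counted Chgb line, which starts at base 132781278, 364 bases from the RefSeq start. A match is only a match of letters. Sst and Chgb, which share the full element, had different patterns over the libraries, as their values show.

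**Figure D1:**
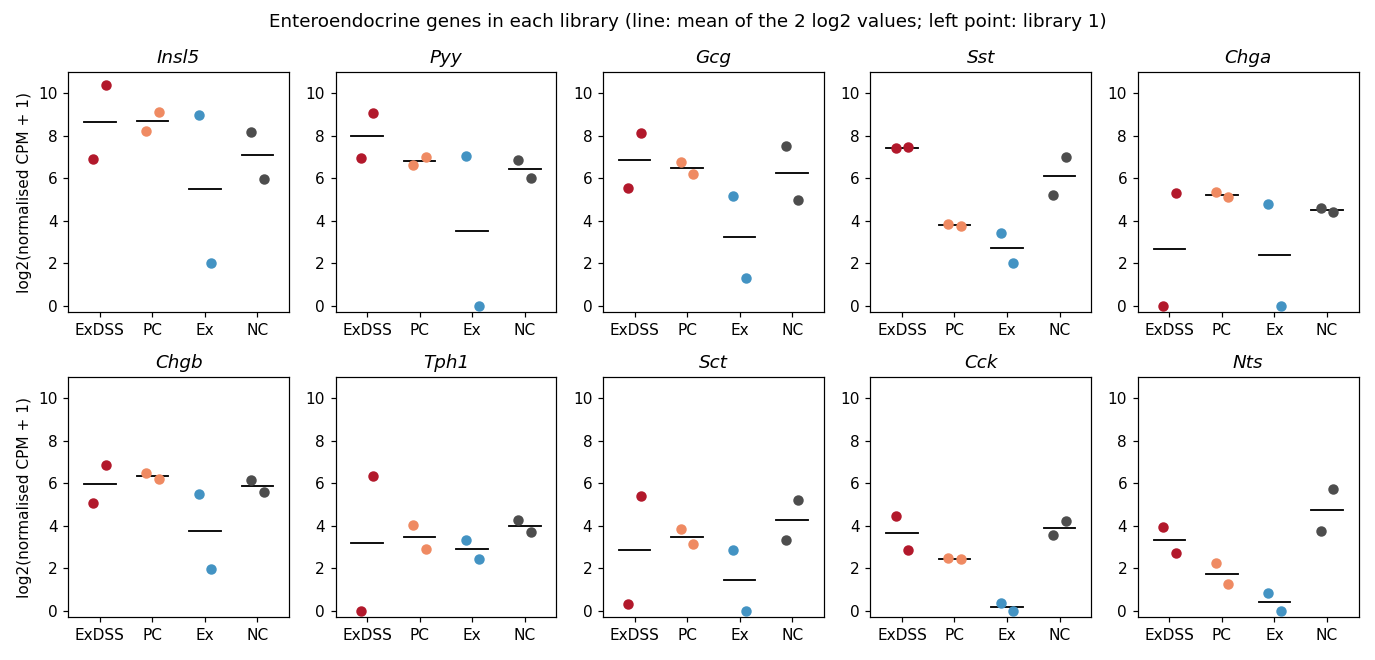
Level of each of the 10 genes as log2(normalised CPM + 1), with 1 point per library (library 1 on the left) and a line at the mean of the 2 log2 values in ExDSS, PC, Ex and NC. Ex 2 is the lowest or joint lowest library for 9 of the 10 genes; for Tph1 the lowest is ExDSS 1, with no count.

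Insl5, Pyy and Gcg are the hormone genes of the L cell. Insl5 encodes insulin-like peptide 5, a relaxin-family hormone of the distal colon that raises food intake in mice. Insl5 (chr4:103017873-103026842, minus strand) had 118 and 1315 CPM in ExDSS, 300.3 and 555 in PC, 498 and 2.98 in Ex, and 290.3 and 61.8 in NC. Its highest library was ExDSS 2, and the other ExDSS library lay below both PC libraries. Both PC libraries lay above both NC libraries.

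Pyy encodes peptide YY, which slows transit and curbs appetite. Pyy (chr11:102106676-102107776, minus strand) had 122 and 528 CPM in ExDSS, 96.2 and 128 in PC, 131 and 0 in Ex, and 115 and 64.04 in NC. Leaving aside ExDSS 2 and Ex 2, its values spanned only 64.04 to 131 CPM and the groups overlapped. Gcg encodes proglucagon, which L cells cut to glucagon-like peptides 1 and 2. Gcg (chr2:62474530-62483653, minus strand) had 46.1 and 279 CPM in ExDSS, 106 and 72.3 in PC, 34.3 and 1.49 in Ex, and 185 and 30.1 in NC. The 2 NC libraries differed by more than the PC libraries did, and the range of NC held both PC values.

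The proportions of the L-cell hormones were compared within libraries, where depth and scaling cancel. Insl5 counts per Pyy count were 0.966 and 2.49 in ExDSS, 3.12 and 4.33 in PC, 3.81 in Ex 1, and 2.53 and 0.964 in NC, and Ex 2 had no Pyy count. Both PC libraries thus held more Insl5 per Pyy than both NC libraries and both ExDSS libraries, and the exact 95% counting intervals of the lower PC library (2.93 to 3.32) and the higher NC library (2.39 to 2.68) did not meet. Counting intervals do not cover the spread between libraries. Gcg counts per Pyy count were 0.378 and 0.528 in ExDSS, 1.10 and 0.564 in PC, 0.263 in Ex 1, and 1.61 and 0.470 in NC, so that these ratios overlapped between PC and NC. As a share of the counts of all 10 genes, Insl5 took 22.4% and 50.9% in ExDSS, 44.0% and 62.0% in PC, 65.5% in Ex 1, and 37.7% and 13.2% in NC.

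L-cell hormones are known to change along the gut, so the position markers are given beside them. The 8 distal colon position markers in the table summed to 21.1 and 36.5 CPM in ExDSS, 111 and 222 in PC, 278.5 and 116 in Ex, and 35.7 and 16.4 in NC. Hoxb13, a Hox gene of the posterior body, had 5.21 and 18.1 CPM in ExDSS, 83.0 and 152 in PC, 183 and 0 in Ex, and 5.90 and 0 in NC. Hoxd13 had 0 and 1.93 CPM in ExDSS, 8.43 and 42.4 in PC, 58.4 and 10.4 in Ex, and 1.13 and 0 in NC. Hoxa11 did not follow them, with 15.5 and 11.47 CPM in ExDSS, 12.4 and 6.20 in PC, 7.15 and 0 in Ex, and 27.5 and 6.19 in NC. The libraries with the highest Insl5 per Pyy (PC 1, PC 2 and Ex 1) were also the 3 with the highest Hoxb13. ExDSS 2 had the highest Insl5 of all with little Hoxb13. The part of gut position in the L-cell values was not tested. In tissue libraries such as these, fewer cells of a type and less RNA per cell cannot be told apart.

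**Figure D2:**
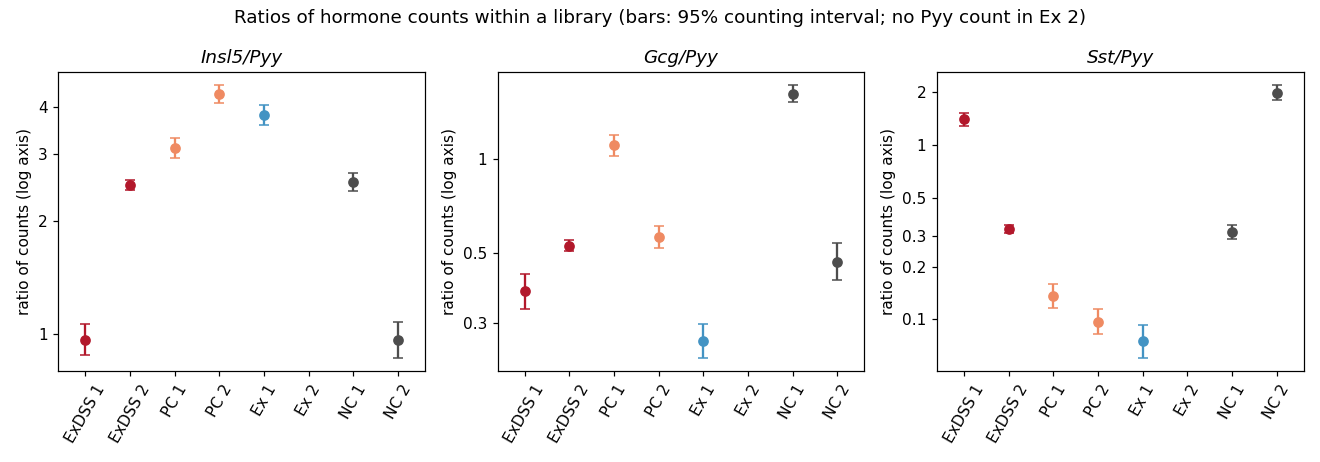
Counts of Insl5, Gcg and Sst divided by counts of Pyy in each library, on a log axis, with exact 95% counting intervals; Ex 2 has no point because it had no Pyy count. Insl5 per Pyy is highest in PC 2 (4.33), and Sst per Pyy is at or above 0.317 in all ExDSS and NC libraries and at or below 0.137 in PC and Ex 1.

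Sst encodes somatostatin, the inhibitory peptide of D cells, which restrains the release of most other gut hormones and is also made by enteric neurons and pancreatic delta cells. Sst (chr16:23889581-23890844, minus strand) had 171 and 174 CPM in ExDSS, 13.2 and 12.47 in PC, 9.80 and 2.98 in Ex, and 36.4 and 128 in NC. No groups overlapped. Both ExDSS libraries lay above every other library, both NC libraries above every PC and Ex library, and the PC libraries above those of Ex. The order of the group means was ExDSS (173 ± 2.08 CPM), NC (82.1 ± 64.7 CPM), PC (12.8 ± 0.484 CPM) and Ex (6.39 ± 4.83 CPM; SD, n = 2 each), and no neighbours in that order overlapped. Sst counts per Pyy count were 1.41 and 0.330 in ExDSS, 0.137 and 0.0973 in PC, 0.0751 in Ex 1, and 0.317 and 1.997 in NC.

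Markers of other somatostatin sources stood beside these values as follows. A set of 9 islet markers summed to 152 and 178 CPM in ExDSS, 5.31 and 19.6 in PC, 27.8 and 0 in Ex, and 21.2 and 11.7 in NC. Ppy, which gut endocrine cells also make, gave 77.1 and 168 CPM of the ExDSS sums. The insulin gene Ins1 had 39.1 CPM in ExDSS 1 and no count elsewhere. Ins2 had 35.7 CPM in ExDSS 1, 6.00 CPM in NC 2 and no count elsewhere. Iapp, the islet amyloid polypeptide gene, had 0 and 10.5 CPM in ExDSS and at most 0.471 CPM in any other library. ExDSS 1 and NC 2 were also the libraries with acinar RNA. ExDSS 2 had no insulin count and an acinar sum of 559 CPM, but the highest Ppy, Iapp and islet sum, and its Sst was as high as in ExDSS 1. NC 1 had no insulin count, and its Sst was above both PC libraries. A set of 15 neuronal markers summed to 308 and 309.5 CPM in ExDSS, 121 and 129.8 in PC, 155 and 457 in Ex, and 162 and 392 in NC. Tubb3, a neuronal tubulin and the most abundant of them, had 38.1 and 32.8 CPM in ExDSS, 2.76 and 3.37 in PC, 3.68 and 261 in Ex, and 9.88 and 97.9 in NC. Uchl1, a neuronal ubiquitin hydrolase, had 56.5 and 54.7 CPM in ExDSS, 9.52 and 12.2 in PC, 10.6 and 2.98 in Ex, and 23.1 and 154 in NC. Stmn2, a neuronal stathmin, had 34.97 and 64.3 CPM in ExDSS, against 26.0 and 35.4 CPM in PC, and overlapped. Both ExDSS libraries lay above both PC libraries for 3 of the 15 (beside 18.9% of all genes tested) and below for 3 (beside 45.4%), the 3 below being Elavl4, Elavl3 and Ret, with no count in ExDSS. S100a8 and S100a9 split the libraries by label as Sst did, with ExDSS and NC high. Their part in the Sst values was not tested.

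**Figure D3:**
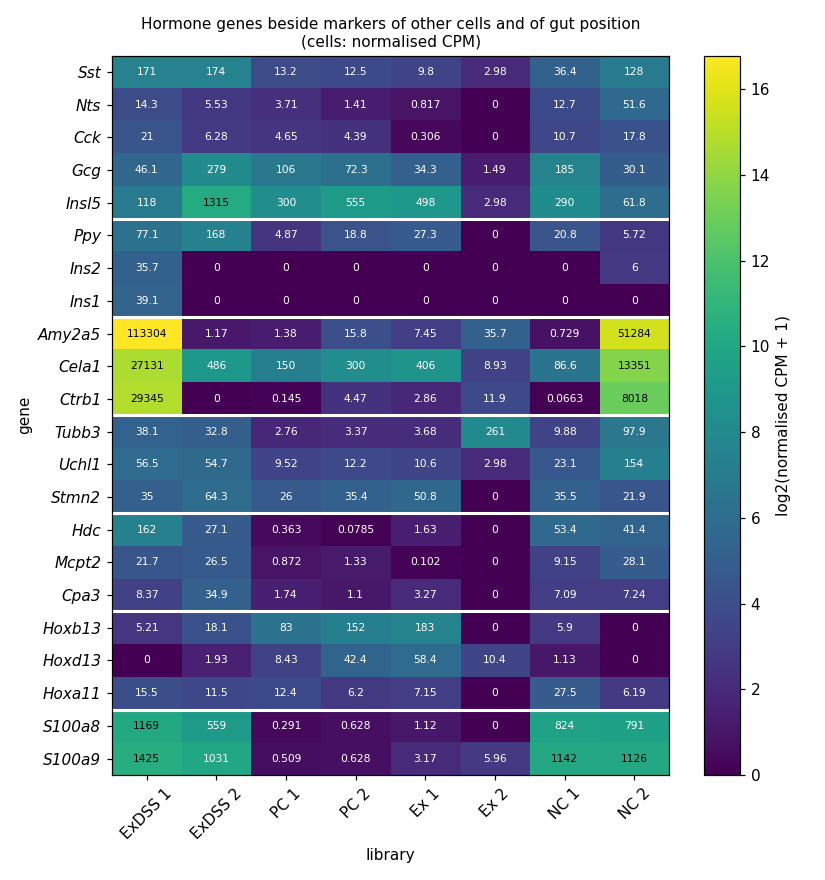
Normalised CPM of 5 hormone genes and of markers of islet (Ppy, Ins2, Ins1), acinar pancreas (Amy2a5, Cela1, Ctrb1), neurons (Tubb3, Uchl1, Stmn2), mast cells (Hdc, Mcpt2, Cpa3), distal colon position (Hoxb13, Hoxd13, Hoxa11) and neutrophils (S100a8, S100a9) in each library, coloured on the log2(CPM + 1) scale. Sst is high in the ExDSS and NC libraries, as are S100a8 and S100a9, while Ins1 appears only in ExDSS 1.

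Tph1 encodes tryptophan hydroxylase 1, the rate-limiting enzyme of serotonin synthesis in enterochromaffin cells and, in rodents, in mast cells. Tph1 (chr7:46644641-46672537, minus strand) had 0 and 81.0 CPM in ExDSS, 15.6 and 6.43 in PC, 9.19 and 4.47 in Ex, and 18.2 and 12.3 in NC. Its highest and its lowest library were both ExDSS. The ranges of PC and NC overlapped. The 11 mast cell markers in the table summed to 236 and 129.5 CPM in ExDSS, 20.1 and 17.1 in PC, 20.8 and 0 in Ex, and 87.1 and 107 in NC. Of these, Ms4a2, a subunit of the high-affinity IgE receptor, had no count in any library. Hdc, the histidine decarboxylase gene that other histamine-making cells also use, gave 162 and 27.1 CPM of the ExDSS sums. Without Hdc the sums were 73.8 and 102 CPM in ExDSS, 19.7 and 17.03 in PC, 19.2 and 0 in Ex, and 33.7 and 65.5 in NC. Mcpt2, a mucosal mast cell protease, had 21.7 and 26.5 CPM in ExDSS, against 0.872 and 1.33 CPM in PC. Cpa3, mast cell carboxypeptidase, had 8.37 and 34.9 CPM in ExDSS, against 1.74 and 1.10 CPM in PC. Of the 8 markers tested, 6 were higher in both ExDSS libraries than in both PC libraries (beside 18.9% of all genes). Kit was the 1 lower in both (beside 45.4%), with 7.68 and 1.34 CPM in ExDSS, against 14.5 and 10.8 CPM in PC. ExDSS 2 had the highest sum without Hdc and also the highest Tph1. ExDSS 1 had the highest sum with Hdc and the next highest without it (73.8 CPM), but no Tph1 count. The part of mast cells in the Tph1 values was not tested. The count of 0 in ExDSS 1 has an exact 95% upper limit of 0.506 CPM of Tph1.

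Sct, Cck and Nts encode secretin, cholecystokinin and neurotensin, peptides that stimulate bicarbonate secretion, gallbladder and enzyme release, and fat absorption. Sct (chr7:141278329-141279133, minus strand) had 0.274 and 41.5 CPM in ExDSS, 13.3 and 7.77 in PC, 6.33 and 0 in Ex, and 9.08 and 36.6 in NC. Cck (chr9:121489824-121495694, minus strand) had 21.0 and 6.28 CPM in ExDSS, 4.65 and 4.39 in PC, 0.306 and 0 in Ex, and 10.7 and 17.8 in NC. Nts (chr10:102481756-102490418, minus strand) had 14.3 and 5.53 CPM in ExDSS, 3.71 and 1.41 in PC, 0.817 and 0 in Ex, and 12.7 and 51.6 in NC. Cck and Nts, like Sst, were higher in both libraries of ExDSS and NC than in any of PC or Ex, while Sct overlapped. The Ex values of Cck rested on 3 counts and those of Nts on 8, all in Ex 1.

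Per kilobase of the transcript length in the table, the mean level over the 8 libraries was 578 CPM per kb for Insl5 and 296 CPM per kb for Pyy. On this scale Sst had 114 and Gcg 86.4 CPM per kb, then came Sct (28.1), Chgb (21.8), Chga (12.01), Cck (9.54), Nts (9.53) and Tph1 (3.79). Since reads of this library type come from the 3′ end, the scale favours short transcripts.

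The effect of DSS without exosomes was read from PC against NC. Chga, Chgb and Insl5 were higher in both PC libraries than in both NC libraries, and Cck, Sst and Nts were lower in both. These are 3 genes of 10 in each direction, beside 31.0% of all 14567 genes with both PC libraries above and 23.6% with both below. No member passed the edgeR quasi-likelihood test with Benjamini-Hochberg adjustment, as no gene did (0% called), 363 genes and no member having an unadjusted p under 0.05. The smallest p was that of Sst, with a log2 fold change of -2.68 (SE 1.32, edgeR adjusted p = 1). Nts had -3.64 (SE 1.98, edgeR adjusted p = 1) and Cck -1.66 (SE 1.92, edgeR adjusted p = 1). The other 7 lay between -1.11 and 1.28, and the median of the 10 was -0.37, beside 0.10 for all genes. DESeq2 called 86 genes and limma-voom 2, none of them a member. Without NC 1 the members' median was 0.33, so its sign rests on that library. With 1 library left out the log2 fold change of Sst ran from -3.31 (without NC 1) to -1.50 (without NC 2), and that of Nts from -4.47 (without PC 1) to -2.30 (without NC 2). Scaled to total counts, 2 members were higher in both PC libraries, Chgb then overlapping (share of all genes not taken under this scaling).

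The effect of exosomes under DSS was read from ExDSS against PC. Sst, Cck and Nts were higher in both ExDSS libraries than in both PC libraries (3 of 10, beside 18.9% of all genes), and no member was lower in both (beside 45.4%). Sst averaged 173 CPM in the ExDSS libraries and 12.8 CPM in those of PC, a log2 fold change of 3.75 (SE 1.38, edgeR adjusted p = 0.228). Nts had 1.94 (SE 1.85, edgeR adjusted p = 0.701) and Pyy 1.53 (SE 1.55, edgeR adjusted p = 0.725). The other 7 lay between -0.93 and 1.88, and the median of the 10 was 1.26, beside -0.51 for all genes. No gene was called by edgeR (0%), with 2763 genes and 1 member, Sst, at an unadjusted p under 0.05. DESeq2 called 1526 genes including Sst, and limma-voom 1118 and no member. Without ExDSS 2 the members' median was -1.15, whereas the log2 fold change of Sst stayed between 3.73 and 3.85 with any 1 library left out. That of Pyy was 0.10 without ExDSS 2 and 2.22 without ExDSS 1, and that of Nts 1.09 without ExDSS 1 and 2.88 without PC 1. With TMM computed without Rn45s and acinar genes, Pyy was also higher in both ExDSS libraries, making 4 of 10. Pyy then had 158.14 CPM in ExDSS 1 and 158.12 CPM in PC 2, a gap within counting error. The share of all genes was not taken under this scaling.

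Exosomes without DSS were compared as Ex against NC, where Ex 2 brought almost no member counts. Both Ex libraries lay below both NC libraries for Chgb, Sct, Cck, Tph1, Sst and Nts (6 of 10, beside 22.9% of all genes), and above them for none (beside 11.1%). Of 12 epithelial markers, 5 were also lower in both Ex libraries. Tph1 rested on 3 counts in Ex 2, with an exact 95% interval (0.921 to 13.1 CPM) that held the 12.3 CPM of NC 2. Sst averaged 6.39 CPM in Ex and 82.1 CPM in NC, a log2 fold change of -3.59 (SE 1.39, edgeR adjusted p = 0.930). Nts had -5.74 (SE 2.28, edgeR adjusted p = 0.930) and Cck -5.80 (SE 2.49, edgeR adjusted p = 0.930). From summed counts, Cck was 47.6-fold lower in Ex than in NC (95% counting interval 16.2 to 232, 3 against 349 counts) and Nts 37.4-fold lower (18.9 to 87.0, 8 against 732 counts). The other 7 log2 fold changes lay between -2.66 and 0.51, and the median of the 10 was -1.88, beside -0.27 for all genes. edgeR called no gene (0%), with 774 genes and 3 members at an unadjusted p under 0.05. DESeq2 called 337 genes including Nts and Cck, and limma-voom none. Without Ex 1, which leaves Ex 2 alone, 1596 genes including Pyy and Sst were called and the members' median was -8.23. The log2 fold change of Nts was then -11.33 and that of Cck -10.16, while that of Sst ran from -4.90 (without Ex 1) to -2.44 (without NC 2). Scaled to total counts, Chgb overlapped and 5 members were lower in both Ex libraries (share of all genes not taken under this scaling).

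DSS after exosomes was read from ExDSS against Ex. All 10 log2 fold changes were positive, with a median of 2.53 beside -0.29 for all genes. Ex 2, with 10 counts over all 10 genes, was 1 of the 2 Ex libraries. The 12 epithelial markers had a median of 0.78, 8 of them being positive, and of -0.16 without Ex 2. Gcg, Cck, Sst and Nts were higher in both ExDSS libraries than in both Ex libraries (4 of 10, beside 17.0% of all genes), and none was lower in both (also beside 17.0%). Sst averaged 173 CPM in ExDSS and 6.39 CPM in Ex, a log2 fold change of 4.67 (SE 1.45, edgeR adjusted p = 0.236). Cck had 5.73 (SE 2.49, edgeR adjusted p = 0.236) and Gcg 3.12 (SE 1.52, edgeR adjusted p = 0.257). From summed counts, Cck was 41.4-fold higher in ExDSS than in Ex (14.0 to 202) and Nts 11.6-fold higher (5.74 to 27.2). The other 7 lay between 0.48 and 4.04. edgeR called no gene (0%), with 2881 genes and 2 members at an unadjusted p under 0.05, while DESeq2 called 2046 genes including Sst and Cck, and limma-voom 421 and no member. Without ExDSS 2 the members' median was 0.63, and without Ex 1 it was 8.89, with Pyy and Sst called. The log2 fold change of Gcg was 1.30 without ExDSS 2 and 6.92 without Ex 1. That of Cck was 4.55 without ExDSS 1 and 10.19 without Ex 1, and that of Sst 4.18 without Ex 2 and 6.05 without Ex 1. Scaled to total counts, Gcg overlapped and 3 members were higher in both ExDSS libraries (share of all genes not taken under this scaling).

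Whether DSS had a different effect after exosomes was tested by the interaction, the difference between ExDSS against Ex and PC against NC. No member was called, beside 42 of 14567 genes (0.288%), 38 higher and 4 lower. No gene was called without NC 1 or without NC 2. Sst had an interaction log2 value of 7.35 (SE 1.95, edgeR adjusted p = 0.111), Nts 7.69 (SE 2.91, edgeR adjusted p = 0.201) and Cck 7.39 (SE 3.13, edgeR adjusted p = 0.225). In these 3 genes the values were higher in ExDSS than in Ex and lower in PC than in NC in every library. The other 7 lay between -0.28 and 3.65, and the median of the 10 was 3.19, beside -0.58 for all genes. DESeq2 called 1672 genes including Nts, Sst and Cck, and limma-voom 92 and no member. Without ExDSS 2 the members' median was 0.22, and without Ex 1 it was 9.23 with Pyy and Sst called. Without Ex 1 the interaction value of Nts was 13.30 and that of Cck 11.78, and without NC 2 those of Nts and Sst were 6.39 and 6.18. These comparisons share libraries, so their values are set side by side and are not independent.

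**Figure D4:**
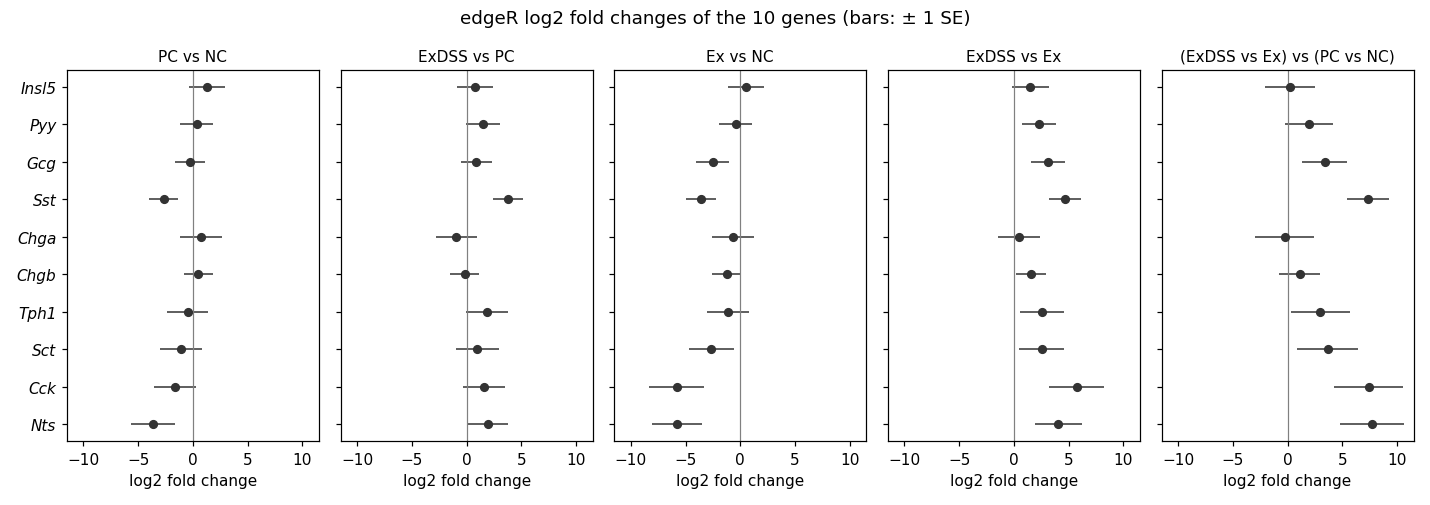
edgeR log2 fold change of each of the 10 genes in PC against NC, ExDSS against PC, Ex against NC, ExDSS against Ex and the interaction, with bars of 1 SE either side. Sst, Cck and Nts lie below 0 in PC against NC and in Ex against NC and above 0 in the other 3 panels.

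The transcription factors that specify enteroendocrine cells were listed at low levels throughout, 8 of 14 passing the filter. Neurod1, which drives late endocrine differentiation, had no count in either ExDSS library, 3.13 and 4.16 CPM in PC, 1.84 and 0 in Ex, and 4.77 and 3.53 in NC. It was at least 10.99-fold lower in ExDSS than in PC, against a floor of 3 counts per library (edgeR adjusted p = 0.228). Insm1, a zinc finger factor of endocrine cells, also had no count in ExDSS and 1.96 and 1.73 CPM in PC, at least 5.57-fold lower (edgeR adjusted p = 0.228). Etv1 had 0.137 and 0 CPM in ExDSS, against 6.54 and 7.30 CPM in PC, a log2 fold change of -6.57 (SE 2.77, edgeR adjusted p = 0.228). Both ExDSS libraries lay below both PC libraries for 5 of the 8 genes tested, beside 45.4% of all genes, and none was called. In ExDSS against PC the log2 fold changes of the 8 had a median of -6.21, or -1.43 with the 4 genes at 0 in ExDSS set at their bound. Of the 8, 3 were positive, and 0 were higher in both ExDSS libraries. Isl1 had 16.3 and 0.586 CPM in ExDSS, against 2.25 and 7.69 CPM in PC. Pax6 had 11.9 and 0 CPM in ExDSS, against 1.96 and 1.02 CPM in PC. Lmx1a had 0 and 4.10 CPM in ExDSS, against 1.24 and 1.96 CPM in PC. Of the 14 factors, 9 had no count in either ExDSS library, against 0 of 14 in PC, 1 in Ex and 4 in NC. Of all 23282 lines, 44.1% had no count in either ExDSS library, against 24.4% in PC, 28.4% in Ex and 29.7% in NC. Among lines with a mean of 1 to 5 CPM in PC, 34.4% of 3400 had no count in either ExDSS library. Among those of 5 to 20 CPM the share was 9.29% of 4638. No such share was taken below 1 CPM, where several of the 9 factors lay. Examples are St18, with a mean of 0.974 CPM in PC, and Neurog3, with 0.820 CPM. The count of 9 thus has no comparison at its own level. The 10 hormone and granule genes summed to 525 and 2584 CPM in ExDSS, against 682 and 896 CPM in PC, so that ExDSS 1 lay below both PC libraries and ExDSS 2 above both.

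Of 20 genes of granule formation and hormone processing, 19 were tested and none was called in any comparison. Pcsk1, the prohormone convertase that cuts proglucagon to glucagon-like peptide 1, had no count in either ExDSS library, 12.3 and 7.69 CPM in PC, 4.08 and 0 in Ex, and 4.84 and 6.00 in NC. It was at least 30.1-fold lower in ExDSS than in PC (edgeR adjusted p = 0.228). Slc18a2, the vesicular monoamine transporter 2, had no count in ExDSS and 2.40 and 2.51 CPM in PC, at least 7.41-fold lower (edgeR adjusted p = 0.228). Ptprn2, a granule membrane protein, had 0 and 0.586 CPM in ExDSS, against 16.6 and 10.98 CPM in PC, a log2 fold change of -5.44 (SE 2.40, edgeR adjusted p = 0.233). More abundant genes of the same list overlapped: Cpe, the carboxypeptidase that trims prohormones, had 50.5 and 89.4 CPM in ExDSS, against 77.6 and 81.1 CPM in PC. Both ExDSS libraries lay below both PC libraries for 9 of 19 genes (beside 45.4%) and above for 3 (beside 18.9%), and the median of the 19 log2 fold changes was -0.59. In Ex 2 the list summed to 459 CPM, 374 CPM of it from Pam, the peptide-amidating enzyme that many cells make.

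**Figure D5:**
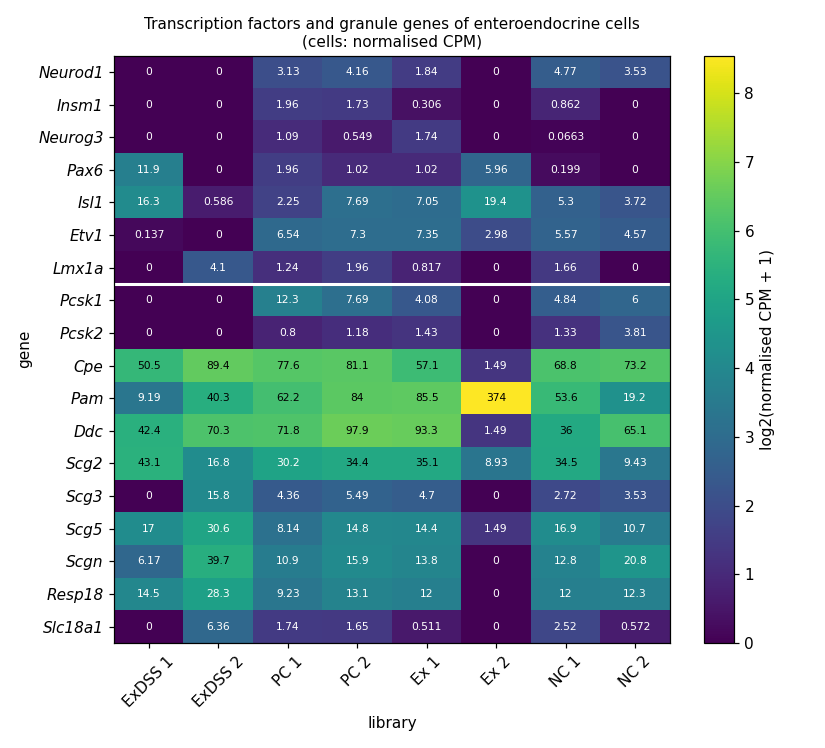
Normalised CPM of 7 transcription factors (above the white line) and 11 granule and hormone processing genes (below it) in each library, coloured on the log2(CPM + 1) scale. Neurod1, Insm1, Neurog3, Pcsk1 and Pcsk2 are at 0 in both ExDSS libraries, while Cpe and Ddc are present in every library at 1.49 CPM or more.

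Of 13 other gut hormones and transmitters, 8 were tested and none was called. Tac1, the substance P precursor of enterochromaffin cells and neurons, had 293 and 635 CPM in ExDSS, 37.5 and 44.0 in PC, 43.6 and 0 in Ex, and 188 and 211 in NC. Its log2 fold change in ExDSS against PC was 3.51 (SE 1.57, edgeR adjusted p = 0.237). Ppy, the pancreatic polypeptide gene, had 77.1 and 168 CPM in ExDSS, against 4.87 and 18.8 CPM in PC, a log2 fold change of 3.37 (SE 1.65, edgeR adjusted p = 0.271). Ghrl, the ghrelin gene, had no count in ExDSS and 0.945 and 1.41 CPM in PC, at least 3.56-fold lower (edgeR adjusted p = 0.247). Both ExDSS libraries lay above both PC libraries for 5 of the 8 (beside 18.9%) and below for 1 (beside 45.4%). In PC against NC all 8 log2 fold changes were negative, with a median of -1.34, and 4 were lower in both PC libraries (beside 23.6%).

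Likeness of pattern was measured as the root mean square difference between centred log2(CPM + 1) profiles over the 8 libraries, among 10428 other genes with a mean of at least 5 CPM. The genes nearest to Chga were B4galt4 (0.197), Acss1 (0.218) and Thoc3 (0.261), and none of them is a hormone gene. Sst was nearest to Cmtm7 (0.330), Tlr13 (0.334) and Lysmd1 (0.365). Insl5 was nearest to Sval1 (0.479), Serpinb1a (0.627) and Car4 (0.655), Pyy to Hbb-b1 (0.438), Hbb-bs (0.491) and Mrpl33 (0.546), and Gcg to Tnfrsf1a (0.511), Trim12a (0.561) and Ptpn6 (0.592). Each of the 10 genes had at least 3 of the 10428 other genes nearer to it than any of its 9 fellow members. With so many more candidates outside the set, this cannot show whether the members share a pattern. Among the members the nearest pairs were Cck and Nts (0.724), Chgb and Gcg (0.745), and Pyy and Insl5 (0.812). Chga, which marks enteroendocrine cells as a class, was nearest among members to Sct, at 1.03. Distances between members contain the low values of Ex 2, the lowest or joint lowest library for 9 of the 10.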

How the data were processed

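Per the labels' protocols, total RNA was extracted with Trizol and libraries were made with the QuantSeq 3′ mRNA kit. The authors deposited whole-number counts per gene, and the submitters' processing notes name Bowtie2, bedtools, edgeR and mm9. The table's coordinates were those of GRCm38: 99.7% of the 22139 lines matched by name overlapped the GENCODE M21 gene. Use of strand in the counting: not given in the sources used here.

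Normalised CPM divide each count by the TMM-adjusted size of its library. Tests used edgeR 4.0.16 in R 4.3.3 (filterByExpr with a minimum count of 10 in 2 libraries and 15 in total; robust quasi-likelihood F test; all 8 libraries; 4 residual degrees of freedom), with p-values adjusted over 14567 genes and called under 0.05. Each SE was taken as the size of the log2 fold change over the root of its F statistic. Alternatives were DESeq2 1.42.0, limma-voom (limma 3.58.1), other scalings and filters, a replicate block, and libraries left out. The scripts were tested on simulated counts.

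The 10 members and the 14 other lists were chosen with earlier results of these data known; some marker genes are not reported here. All members were given in every library, with fold changes for the 3 with the smallest p per comparison, and for the 3 smallest of each list of enteroendocrine function in ExDSS against PC. Islet, neuron, mast cell and position lists were given by their sum and 3 most abundant genes, other checks by their sum. The element windows and the ratios were chosen after their values were seen. So were the genes named beyond these rules: Elavl4, Elavl3, Ret, Iapp, Lgals4, Gip, Gast, Ms4a2, Kit, Isl1, Pax6, Lmx1a, Cpe, Pam, Rn45s, Cckar, Ffar2, Trpa1 and Glp1r. Intervals and floors (3 counts per library) cover counting error only.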

Additional observations from a re-analysis of the deposited data

Results flagged for a closer look

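In 3 genes of the lists the difference between ExDSS and Ex was not the same as that between PC and NC (interaction term, edgeR quasi-likelihood F test with Benjamini-Hochberg adjustment); none is one of the 10 enteroendocrine genes. S100a8 had an interaction log2 value of 20.75 (adjusted p = 0.00414) and S100a9 one of 19.07 (adjusted p = 0.00414), each being high in both ExDSS and both NC libraries and near 0 in the others. These are the genes by which the PC and NC libraries went against their labels, so the values hold only for libraries so labelled. Of the value of S100a8, the log2 fold change in PC against NC (-10.75) made about as much as that in ExDSS against Ex (10.01), and of that of S100a9 the same comparisons had -10.93 and 8.14. Hdc, the histidine decarboxylase gene of mast cells and other histamine-making cells, had 14.02 (adjusted p = 0.020), with 162 and 27.1 CPM in ExDSS, 0.363 and 0.0785 in PC, 1.63 and 0 in Ex, and 53.4 and 41.4 in NC. Its log2 fold changes were -7.66 in PC against NC and 6.36 in ExDSS against Ex. All 3 calls were lost without PC 1, NC 1 or NC 2, the adjusted p of S100a8 then being 0.0626, 0.0809 and 0.0717. That of S100a9 was 0.0734 and that of Hdc 0.243 without PC 2, and Hdc was also lost without ExDSS 1 (0.080), without Ex 2 (0.126), with total counts (0.0813) and with at least 5 CPM in 2 libraries (0.0506).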

How the results depend on the processing

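Signs were followed through the settings for Sst, Nts, Cck, Pyy and Gcg only, in the comparisons where each has an SE above. None of these log2 values turned its sign. The members' median did turn, from 1.26 to -1.15 in ExDSS against PC without ExDSS 2. In PC against NC it went from -0.37 to 0.33 without NC 1. Signs of the remaining members' log2 values were not followed. Genes called were, for PC against NC, ExDSS against PC, Ex against NC, ExDSS against Ex and the interaction: 45, 132, 55, 223 and 350 with no filter (1 member, Sst, in the interaction); 86, 1526, 337, 2046 and 1672 by DESeq2 (0, 1, 2, 2 and 3 members); and 2, 1118, 0, 421 and 92 by limma-voom (no member). The interaction had 67 calls with RLE factors, 6 with total counts, 18 with at least 5 CPM in 2 libraries, and 0 without NC 2 and ExDSS 1. The labels tie same-numbered libraries by number only. Correlations of their deviations from the group mean were -0.10 to 0.05, which with 2 libraries a group cannot exclude a shared batch. A replicate block gave 41 calls in ExDSS against PC, 28 in ExDSS against Ex and 161 in the interaction. With 1 library left out, calls ranged over 0 to 4, 0 to 6, 0 to 1596, 0 to 1883 and 0 to 1663 in the same order, and called members over 0 to 0, 0 to 0, 0 to 2, 0 to 2 and 0 to 2; a lone library is then assumed to vary like the others. Leaving out Ex 2, NC 2 and ExDSS 1 together, chosen after seeing the data, gave 3910, 10719, 3603, 9839 and 9646 genes and 5, 6, 4, 9 and 8 members, the spread then coming from the 2 PC libraries alone. The number of genes tested with libraries left out is not given here, so these member counts have no share of all genes beside them. They cannot show whether members were called more often than other genes. With total counts the median log2 value of all genes was 0.29, -0.91, -0.49, -0.24 and -0.74. That of the members was -0.24, 0.85, -1.96, 2.69 and 3.14, and the members lay on the same side of all genes as with TMM. The causes were not tested. With 2 libraries a group and Ex 2 at 10 member counts, differences in members were not detectable at this depth and spread in the main edgeR setting.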

Other observations

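Receptors for the members' products and for luminal stimuli were also listed. Of 23 receptor and clearance genes, 14 had no count in either ExDSS library, against 3 in PC, 6 in Ex and 5 in NC, beside 44.1%, 24.4%, 28.4% and 29.7% of all 23282 lines in the same order. Sstr1, a somatostatin receptor, had no count in ExDSS and 15.7 and 14.7 CPM in PC, at least 45.8-fold lower (edgeR adjusted p = 0.228). Slc6a4, the serotonin reuptake transporter of the epithelium, had no count in ExDSS and 6.25 and 12.8 CPM in PC, at least 28.7-fold lower (edgeR adjusted p = 0.228). Htr4, a serotonin receptor, had no count in ExDSS and 3.20 and 4.39 CPM in PC, at least 11.46-fold lower (edgeR adjusted p = 0.228). Glp1r, the receptor of glucagon-like peptide 1, had no count in any library. Of the 23 genes, 14 were tested. Both ExDSS libraries lay below both PC libraries for 6 of those tested (beside 45.4% of all genes) and above for 1 (beside 18.9%). Cckar, the cholecystokinin A receptor that pancreatic acinar cells also make, had 65.6 and 13.2 CPM in ExDSS, 14.5 and 5.49 in PC, 0.817 and 0 in Ex, and 26.9 and 53.0 in NC, highest in the 2 libraries with acinar RNA.

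Of 13 nutrient and stimulus receptors, Ffar2, a short-chain fatty acid receptor of L cells that neutrophils also carry, was the most abundant, with 62.5 and 37.9 CPM in ExDSS, 77.4 and 56.3 in PC, 13.8 and 1.49 in Ex, and 68.0 and 82.5 in NC. Piezo2, the mechanosensitive channel of enterochromaffin cells, had no count in ExDSS and 6.62 and 7.92 CPM in PC, at least 21.9-fold lower (edgeR adjusted p = 0.228). Olfr558 and Olfr78, receptors of the olfactory family, had no count in ExDSS. Olfr558 had 3.20 and 2.12 CPM in PC, at least 8.02-fold lower in ExDSS, and Olfr78 had 0.800 and 1.33 CPM in PC, at least 3.22-fold lower (edgeR adjusted p = 0.228 for each). Of these 13 genes, 7 were tested. Both ExDSS libraries lay below both PC libraries for 4 of the 7 (beside 45.4%) and above for 1 (beside 18.9%). The 1 above was Trpa1, with 32.5 and 5.69 CPM in ExDSS, against 0.654 and 1.65 CPM in PC. No gene of either list was called in any comparison.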
